A study of Mus musculus with 8 samples.

Results

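Common dendritic cell progenitors (CDPs) that carried little of a Zeb2-GFP reporter were compared here with CDPs that carried much of it. Members were chosen by sample title: 3 arrays of Zeb2low CDPs and 3 arrays of Zeb2hi CDPs, 6 of the 8 arrays of the series. Both groups came from bone marrow of mice heterozygous for a Zeb2-GFP fusion reporter, so every cell carried 1 fusion allele, and no group from mice without the reporter enters this comparison. Cells were sorted by flow cytometry, total RNA was amplified with a kit for small inputs, and labelled cDNA was hybridised to Affymetrix mouse gene arrays. The labels name neither the gates that defined a CDP nor the GFP limits, give no age or sex, and do not say whether arrays of a group came from separate mice. The p-values therefore rest on how far these samples differ from each other, and that spread may be technical. The comparison asks how the transcriptome of CDPs differs with the level of Zeb2 expression.

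CDPs are marrow cells that give rise to plasmacytoid dendritic cells (DCs) and to both classical lineages, cDC1 and cDC2. Zeb2 encodes a zinc finger repressor that binds E-box sequences. It is known to repress Id2, whose product blocks the DNA binding of E proteins and is needed for cDC1. Nfil3 encodes a repressor that acts upstream in the same circuit, and Batf3 encodes a leucine zipper factor that keeps Irf8 expressed in developing cDC1.

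Median log2 signals over all probe sets ran from 4.91 to 4.98 on the Zeb2hi arrays and from 5.07 to 5.14 on the Zeb2low arrays. The leading principal component of the tested genes held 61.3% of the variance and separated the groups. The next held 22.2% and set replicate 1 of each group, at 22.1 and 31.0, apart from the other 4 arrays, which lay between -26.7 and -3.53. Same-numbered arrays deviated together from their group means, so counts of lists are also given for a fit that takes the replicate number as a blocking term, called the blocked fit below. The number of arrays limits the precision. Where a transcript is lower in bulk RNA, fewer expressing cells and less RNA per cell cannot be told apart.

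Of 12799 genes tested with limma, 715 (5.59%) were higher and 1481 (11.6%) were lower in Zeb2low CDPs at an adjusted p under 0.05. The blocked fit called 1469 (11.5%) higher and 2548 (19.9%) lower. At least 2-fold differences were called for 274 genes higher (2.14%) and 572 lower (4.47%). Among larger differences the balance turned: 54 genes were at least 4-fold higher against 34 lower, and 17 were at least 8-fold higher against 1 lower, Ctsg. Thus the increases were fewer and included the largest differences, whereas all but 34 of the decreases were under 4-fold. Of the calls, 32.6% were higher; this share was 15.9% with array medians centred, which shifted the median difference of all genes to -0.16, and 43.7% after quantile normalization. Counts fell to 217 higher and 474 lower without Zeb2hi array 2, to 193 and 461 without Zeb2hi array 3, to 442 and 1015 without Zeb2low array 2 and to 353 and 889 without Zeb2low array 3. In all 15 alternatives that held the gene, 171 genes stayed higher and 398 stayed lower past the threshold. For 19.4% of all genes every Zeb2low array lay above every Zeb2hi array, and for 22.4% every Zeb2low array lay below. Where groups are said below not to overlap, these shares are the background.

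**Figure D1:**
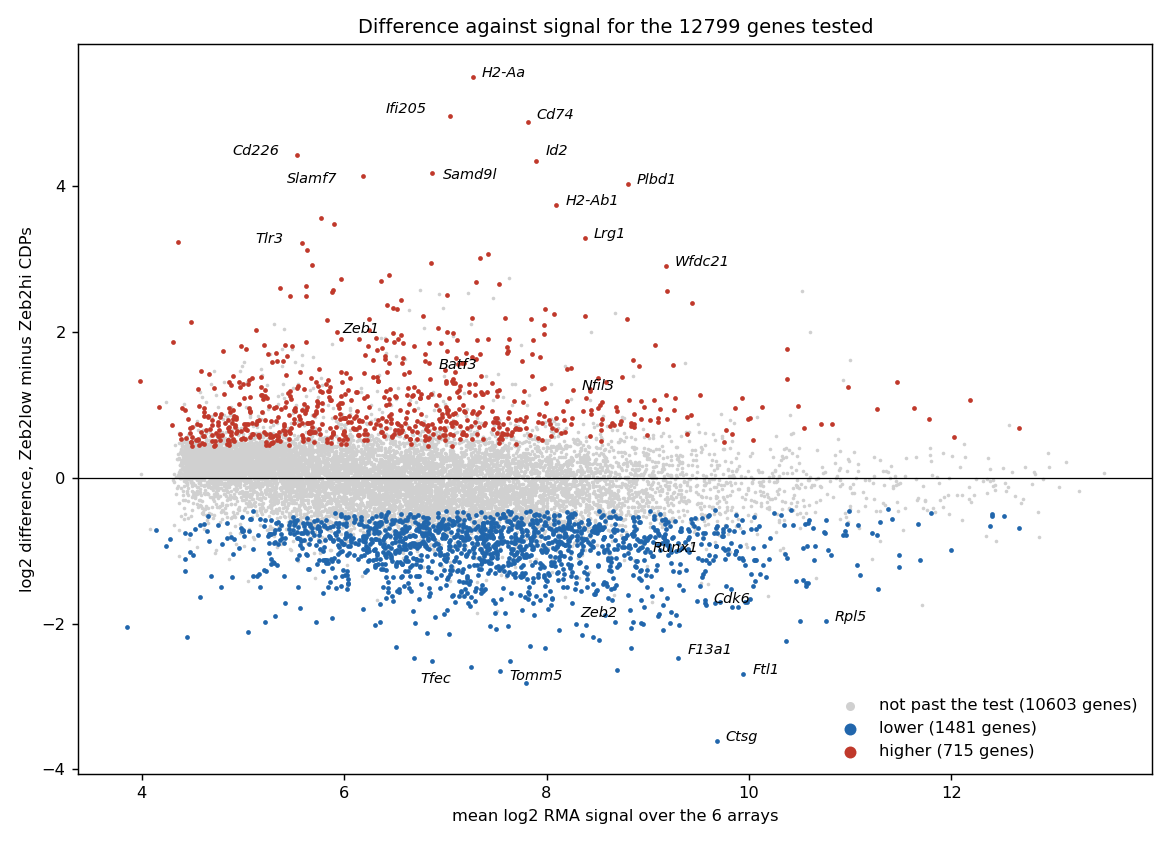
Log2 difference (Zeb2low minus Zeb2hi CDPs) against the mean log2 RMA signal of each of the 12799 genes tested, with 715 genes called higher in red and 1481 called lower in blue. The largest increase (H2-Aa) lies at 5.50 log2 units, the largest called decrease (Ctsg) at -3.61, and decreases gather among the brighter genes.

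Decreases were more frequent among bright genes. Genes were divided by mean signal into 5 equal classes. In the dimmest class 4.80% were higher and 1.64% lower, with a median difference of 0.21. In the brightest class 4.41% were higher and 21.8% lower, and the next class had 5.94% and 16.1%. These shares are the background against which lists of abundant housekeeping transcripts are read below.

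The reporter sort set the level of Zeb2, so its values check the labels and are no finding. Zeb2 signals were 9.45, 9.05 and 9.32 on Zeb2hi arrays 1 to 3 and 7.49, 7.69 and 7.86 on Zeb2low arrays 1 to 3, which is 3.02-fold lower. The groups did not overlap, and Zeb2 was still well above the filter level of the arrays (4.31 to 4.62) in Zeb2low CDPs. Zeb1, the paralogous E-box repressor, differed the opposite way. Its signals were 5.37, 5.58 and 5.50 in Zeb2hi and 7.50, 7.44 and 7.49 in Zeb2low CDPs, a log2 difference of 1.99 ± 0.13 (SE; 3.97-fold, adjusted p = 0.000406, n = 3 arrays per group).

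Id2 was 20.4-fold higher in Zeb2low CDPs. Its signals were 6.37, 5.34 and 5.48 on the Zeb2hi arrays against 10.20, 9.98 and 10.04 on the Zeb2low arrays, a log2 difference of 4.35 ± 0.26 (adjusted p = 0.000392). All 3 Zeb2low arrays lay close together and far above the Zeb2hi arrays. Batf3 signals were 6.25, 5.90 and 6.03 against 7.72, 7.61 and 7.55, 2.97-fold higher (log2 difference 1.57 ± 0.14, adjusted p = 0.0012). Nfil3 signals were 8.04, 7.25 and 7.68 against 8.95, 8.75 and 8.88, 2.30-fold higher (1.20 ± 0.21, adjusted p = 0.00973). Thus the cDC1 factors named for the circuit were all higher where Zeb2 was lower. The groups overlapped for none of these 3 genes, as for 19.4% of all genes in this direction.

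Of 42 DC transcription factor genes that passed the signal filter (47 were listed), 11 were higher and 3 lower, 26.2% and 7.14% against 5.59% and 11.6% of all genes. The median log2 difference of the list was 0.23, against 0.01 over all genes tested. The 3 lower genes and the median include Zeb2, whose level the sort set, so Zeb2 is no evidence in them. Besides Id2, Zeb1, Batf3 and Nfil3, the genes Bcl6, Zfp366, Zbtb46, Cebpe, Spib, Bach2 and Mycl rose. The calls of Spib (adjusted p = 0.0363) and Mycl each held in 1 of the 6 fits that each left out 1 array. Bcl6, a zinc finger repressor of the POZ family, had signals of 6.07, 6.69 and 6.72 in Zeb2hi and 7.76, 8.61 and 8.19 in Zeb2low CDPs (3.23-fold, adjusted p = 0.00709). Zfp366, which encodes the DC repressor DC-SCRIPT, had 5.98, 4.90 and 5.19 against 7.36, 7.0 and 7.47 (3.77-fold, adjusted p = 0.00586). Zbtb46, a marker of committed classical DCs, rose by 0.61 (adjusted p = 0.0289), a call that held in 2 of the 6 fits that each left out 1 array. Both sets of Bcl6 and Zfp366 values were separate between the groups.

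The 3 factor genes that fell were Zeb2, which the sort used, Runx1 and Tfec. Runx1, a core factor of haematopoietic progenitors, had signals of 9.54, 9.67 and 9.84 in Zeb2hi and 8.31, 8.52 and 8.66 in Zeb2low CDPs (log2 difference -1.19 ± 0.15, adjusted p = 0.00371). Tfec, a myeloid member of the MiT family, had 9.07, 8.10 and 8.48 against 6.19, 5.11 and 6.58 (-2.59 ± 0.39, adjusted p = 0.00674). Irf8, the factor on which cDC1 depend, had 9.74, 10.67 and 10.54 against 9.40, 9.86 and 9.92, and its difference of -0.59 did not pass the main test (adjusted p = 0.157), while the blocked fit gave an adjusted p of 0.0204. Tcf4, the E protein gene of the plasmacytoid lineage, differed by -0.23 (adjusted p = 0.449). The blocked fit called 15 factor genes higher and 7 lower. With array medians centred 8 were higher and 6 lower, and 6 were higher without Zeb2hi array 2, without Zeb2hi array 3 and without Zeb2low array 3.

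**Figure D2:**
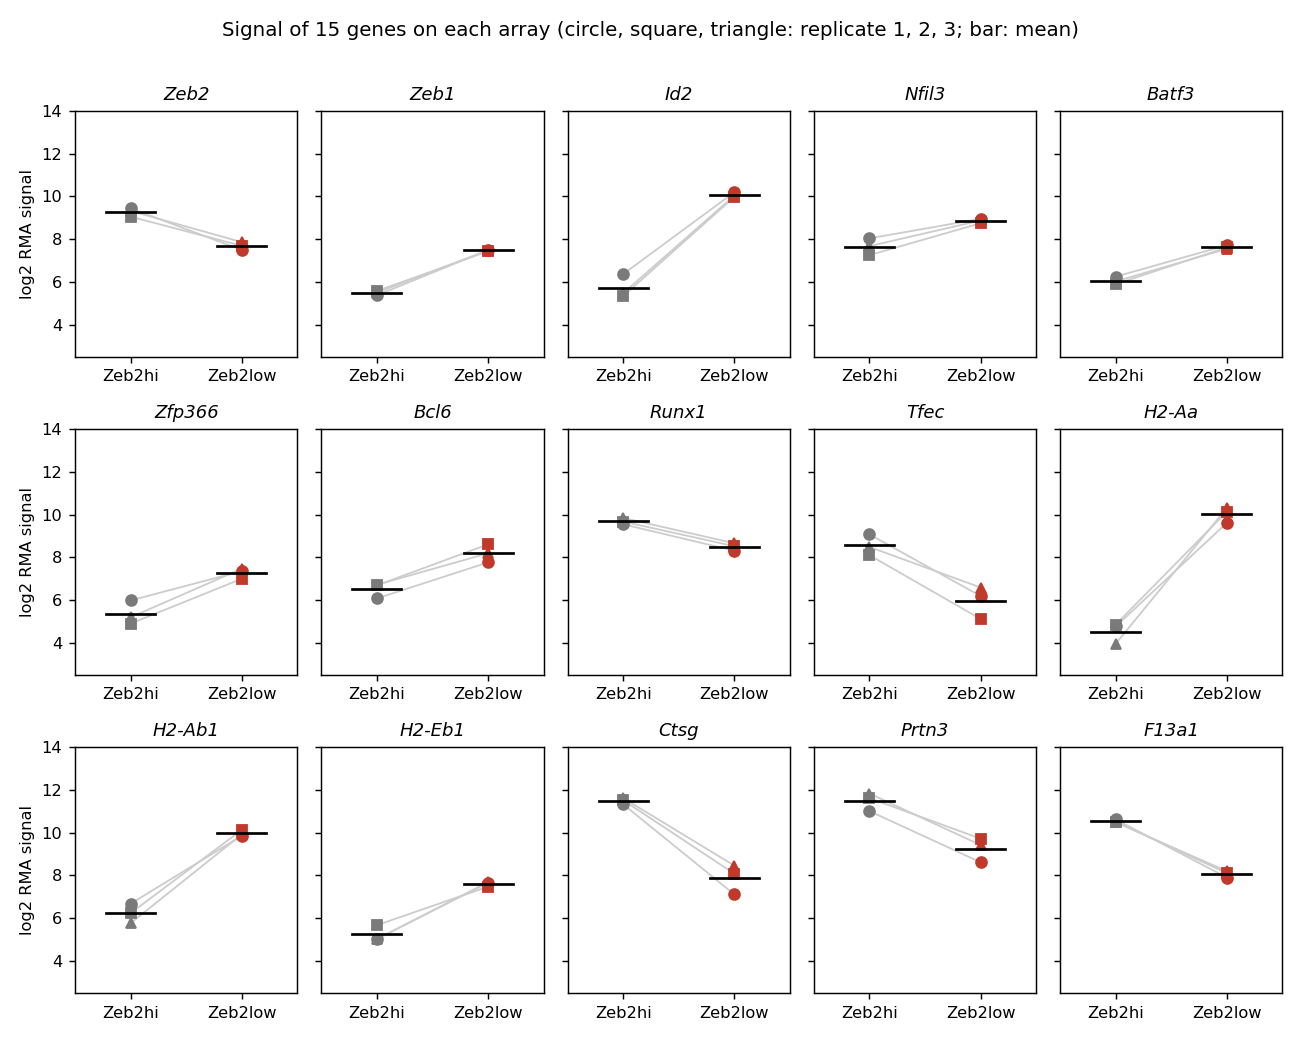
Log2 RMA signal of 15 genes on each of the 6 arrays, with lines joining same-numbered replicates and bars at the group means. The groups do not overlap for any gene shown (over all genes, 19.4% are higher and 22.4% lower without overlap). Zeb2, Runx1, Tfec, Ctsg, Prtn3 and F13a1 are lower and the other 9 are higher in Zeb2low CDPs, with Id2 and the MHC class II genes furthest apart.

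MHC class II molecules present peptides taken up from outside the cell to CD4+ T cells, and their genes share promoter elements, an X box and a CCAAT-containing Y box at a fixed spacing. These elements are bound by a complex that recruits the coactivator CIITA. The promoter stretches of 4 genes of the list are shown because the gene of the largest difference on the arrays, H2-Aa, is among them and because the same pair of elements recurs in all 4. Each runs 5′ to 3′ on the strand of the gene from 120 to 21 bases before the RefSeq transcript start (GRCm38.p6), and capitals mark GCAAC, part of the X box, and ATTGG, the reverse complement of CCAAT.
H2-Aa: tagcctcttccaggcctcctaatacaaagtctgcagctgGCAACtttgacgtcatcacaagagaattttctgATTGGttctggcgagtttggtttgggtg
H2-Eb1: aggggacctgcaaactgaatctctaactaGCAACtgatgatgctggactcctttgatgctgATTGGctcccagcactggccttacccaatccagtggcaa
H2-Oa: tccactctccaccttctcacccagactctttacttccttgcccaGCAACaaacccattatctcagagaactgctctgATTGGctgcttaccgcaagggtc
H2-Ob: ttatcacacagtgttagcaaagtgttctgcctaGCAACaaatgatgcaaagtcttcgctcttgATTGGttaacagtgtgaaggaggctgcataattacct
The stretches lie at chr17:34287844-34287943 (minus strand) for H2-Aa, chr17:34305747-34305846 (plus strand) for H2-Eb1, chr17:34092259-34092358 (plus strand) for H2-Oa and chr17:34238785-34238884 (plus strand) for H2-Ob. The gap between GCAAC and ATTGG is 28, 27, 28 and 25 bases in that order. Over 32851 promoter windows of 300 bases, GCAAC alone was in 35.2% and CCAAT alone in 37.4%, each on either strand. GCAAC followed by ATTGG after 24 to 30 bases, on either strand, was in 105 windows (0.320%). Windows were at hand for 14 of the 21 genes of the MHC class II pathway list, and 5 held the pair: these 4 and H2-Eb2. The gap limits were set with these windows in view, so the count among them is a description only.

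The MHC class II genes gave the largest increase. H2-Aa signals were 4.76, 4.85 and 3.95 on the Zeb2hi arrays and 9.61, 10.13 and 10.31 on the Zeb2low arrays, 45.1-fold higher (log2 difference 5.50 ± 0.28, adjusted p = 0.000206). The Zeb2hi signals of H2-Aa lay near the filter level, so this fold rests on a low baseline. Cd74, the invariant chain that guides class II molecules to endosomes, had 4.75, 5.93 and 5.44 against 9.63, 10.64 and 10.49 (29.4-fold, adjusted p = 0.000556). H2-Ab1 had 6.67, 6.23 and 5.76 against 9.85, 10.13 and 9.92 (13.4-fold, adjusted p = 0.000392). H2-Eb1 had 5.02, 5.67 and 5.02 against 7.66, 7.47 and 7.68 (5.16-fold, adjusted p = 0.00107). Every Zeb2low array lay above every Zeb2hi array for these 4 genes, as for 19.4% of all genes.

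Of the genes with the pair of elements, H2-Oa, a subunit of the peptide-exchange inhibitor DO, rose by 1.12 log2 units (adjusted p = 0.0153), a call that held in 3 of the 6 fits that each left out 1 array. Its partner H2-Ob differed by 0.47 without passing the test (adjusted p = 0.15), and H2-Eb2 did not pass the signal filter. Ciita rose with the class II genes, from 4.85, 4.35 and 4.30 to 6.32, 6.26 and 6.41 (log2 difference 1.83 ± 0.18, adjusted p = 0.00149). The genes of the complex that binds the promoter differed little: Rfx5 by -0.08, Rfxank by -0.16 and Rfxap by 0.34 (adjusted p = 0.68, 0.526 and 0.187). Marchf1, a ubiquitin ligase that turns over class II molecules, rose by 1.07 (adjusted p = 0.00653). By contrast Ctss, the protease that trims the invariant chain, fell by 0.68 (adjusted p = 0.0141), a call that quantile normalization ends (adjusted p = 0.0614). In all, 7 of 18 tested members were higher (38.9%) and 1 lower, with a median of 0.42, and 8 and 3 in the blocked fit. No member was lower without Zeb2hi array 2 or without Zeb2hi array 3.

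The binding motif known for Zeb2 itself, CACCTG, was searched on both strands of the same windows. It was in 20.2% of all windows. Counting the first window listed for each gene, it was in 19.7% of 568 higher genes, 13.5% of 1219 lower genes and in 1842 of 10212 tested genes that had a window. Among the MHC class II list, Zeb2, Id2, Nfil3 and Batf3, a window of Marchf1, H2-DMa and Ifi30 held these letters, and the windows of the other genes, the 4 of Zeb2 included, did not.

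Genes known from mature cDC1, the class that takes up dead cells and cross-presents antigen to CD8+ T cells, showed the highest share of increases among all lists. The lists were chosen with earlier results of these data known, so this rank is a description only. Of 23 tested members 14 (60.9%) were higher and 1 was lower, Clec12a, with a median of 0.94, and 17 and 2 in the blocked fit. No member was lower without Zeb2hi array 2, Zeb2hi array 3 or Zeb2low array 3. The 14 include Id2 and Batf3, described above. The median of the list was 0.83, 1.12 and 0.94 on Zeb2low arrays 1, 2 and 3, against -0.12 to 0.15 on the Zeb2hi arrays. Ifi205, an interferon-inducible nucleic acid binding protein of the PYHIN family, had signals of 4.69, 4.59 and 4.43 against 9.83, 9.48 and 9.27, 31.1-fold higher (4.96 ± 0.18, adjusted p = 4.95e-05). Its close relatives in the family could share probes. Cd226, an adhesion receptor for nectins, had 3.48, 3.19 and 3.30 against 7.86, 7.43 and 7.95. Tlr3, the sensor of double-stranded RNA, had 4.08, 4.0 and 3.84 against 7.30, 7.22 and 7.07. Cd226 and Tlr3 were below the filter level on all Zeb2hi arrays and passed the filter through the Zeb2low arrays alone, so their test is no evidence. Against the filter level they were at least 10.6-fold and at least 7.21-fold higher. Without them 12 of 21 members were higher (57.1%). Over all genes 34 of the 715 increases and 21 of the 1481 decreases passed the filter through 1 group alone; in the lists these also included Cd209d, Clec4b1, C1qb and Cpa3 among the increases and Psma8 among the decreases.

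Further cDC1 genes rose by smaller amounts. Naaa, a lysosomal amidase, rose by 1.85 (adjusted p = 0.0012), Rab7b, an endosomal GTPase gene, by 1.44 (adjusted p = 0.00198), the chemokine receptor gene Cxcr3 by 1.41 (adjusted p = 0.00124) and Wdfy4, which is needed for cross-presentation, by 1.07 (adjusted p = 0.00846). Markers of the mature cell did not follow as a whole. Clec9a, the receptor for exposed actin on dead cells, had 8.36, 7.34 and 7.79 in Zeb2hi and 8.46, 7.55 and 7.95 in Zeb2low CDPs, with a difference of 0.16 ± 0.31 (adjusted p = 0.73). It was bright in both groups, and its values overlapped. Cd8a and Cadm1 differed by 0.43 and 0.47 (adjusted p = 0.0942 and 0.0577; 0.0414 and 0.0337 in the blocked fit). The chemokine receptor gene Xcr1 and the integrin gene Itgae, both hallmarks of mature cDC1, did not pass the signal filter.

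Genes of cDC2 and of plasmacytoid DCs were also higher in part. In the cDC2 list 6 of 18 were higher (33.3%) and 2 lower, Csf1r and Tmem176a, with a median of 0.56, and 8 and 3 in the blocked fit. The 6 included Itgam and Il1r2, which are also known from neutrophils and were highest on array 2 of both groups, as given below. Without Zeb2hi array 3, 2 were higher. The 2 decreases fell to 1 without Zeb2hi array 1 or Zeb2low array 3 and to 0 without Zeb2hi array 2 or 3, and to 0 after quantile normalization. Cd7, an immunoglobulin superfamily receptor, had 6.86, 6.05 and 5.71 against 8.69, 9.18 and 8.72 (6.31-fold, adjusted p = 0.00232). Clec4a2, an inhibitory C-type lectin, had 5.44, 5.45 and 5.14 against 7.28, 8.28 and 7.80 (5.45-fold, adjusted p = 0.00176). Values of both genes were separate between the groups. Sirpa and Cx3cr1, which mark cDC2 and monocytes, differed by -0.20 and -0.11 (adjusted p = 0.461 and 0.723), and Irf4, Clec10a and Esam did not pass the signal filter.

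In the plasmacytoid list 6 of 17 were higher (35.3%) and 1 lower, Atp1b1, with a median of 0.53. Without Cd209d, which passed the filter through the Zeb2low arrays alone, 5 of 16 were higher (31.25%). Siglech, a sialic acid-binding receptor of these cells and of their precursors, had 6.29, 5.61 and 5.64 against 6.86, 7.35 and 6.98 (2.32-fold, adjusted p = 0.0121). Irf7, the factor that drives type I interferon, had 5.40, 5.56 and 5.63 against 6.24, 6.92 and 6.96 (2.26-fold, adjusted p = 0.0113). Bst2, the tetherin gene, went the other way by -0.92 without passing the test (adjusted p = 0.0655; 0.00808 in the blocked fit). This list was less stable than the cDC1 list: without Zeb2hi array 2 none was higher, without Zeb2hi array 3 there was 1, and without Zeb2low array 3 there were 3. Siglech itself had an adjusted p of 0.0589 without Zeb2hi array 2 and 0.058 without Zeb2hi array 3, and Irf7 of 0.0517 without Zeb2hi array 2. Atp1b1 was not called without Zeb2hi array 1, 2 or 3 or Zeb2low array 3, and without Zeb2low array 2 the list had 2 decreases; the blocked fit called 9 higher and 2 lower.

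Surface receptors rose in several families. In the list of costimulation and checkpoint ligands 6 of 17 were higher (35.3%) and none lower, with a median of 0.38, and 7 and 3 in the blocked fit. Slamf7, a homophilic receptor of the SLAM family, had 4.66, 3.97 and 3.71 against 8.50, 8.08 and 8.20, 17.7-fold higher (4.14 ± 0.25, adjusted p = 0.000392). The CD28 ligands differed more modestly, Cd86 by 1.40 (4.16, 3.94 and 4.51 against 5.97, 5.24 and 5.59; adjusted p = 0.00819) and Cd80 by 1.11 (adjusted p = 0.0114). Cd40 differed by 0.21 (adjusted p = 0.376). Without Zeb2hi array 2 or 3 the list had 3 increases, and without Zeb2hi array 1 it had 1 decrease.

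Among integrin genes 6 of 16 were higher (37.5%) and 1 lower, Itgb1, with a median of 0.30, and 7 and 2 in the blocked fit. The largest increases were those of Itgam (4.96-fold) and Itgb2 (4.64-fold), and both genes were highest on array 2 of each group. Itgb2 had 6.98, 7.80 and 7.05 against 8.71, 10.34 and 9.43 (adjusted p = 0.0115). Without Zeb2hi array 3 the adjusted p of Itgam and Itgb2 was 0.0578 and 0.0545. Itgax, the CD11c chain that marks DCs, had 5.95, 5.97 and 5.60 against 6.89, 6.95 and 7.0 (2.15-fold, adjusted p = 0.00438). Itgb7 rose by 1.06 (adjusted p = 0.00737). Without Zeb2hi array 3 there were 3 increases. Itgb1 was called neither in any fit without Zeb2hi array 1, 2 or 3 or Zeb2low array 2 or 3, nor after quantile normalization (adjusted p = 0.13). In the list of C-type lectin and Siglec receptors 9 of 26 were higher (34.6%) and 3 lower, with a median of 0.94. Without Clec4b1, which passed the filter through the Zeb2low arrays alone, 8 of 25 were higher (32%). Cd22, a Siglec known from B cells, had 5.31, 4.92 and 5.22 against 6.98, 7.57 and 7.45 (4.53-fold, adjusted p = 0.00115), and Siglecg rose by 1.24 (adjusted p = 0.00208). By contrast Clec2d and Klrb1f, which encode a ligand and a receptor of the NKR-P1 family system, fell by 1.39 and 1.38 (adjusted p = 0.00374 and 0.00373). The blocked fit called 14 higher and 4 lower in this list, and 4 were higher without Zeb2hi array 2 or 3.

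Receptors that guide progenitors were mixed. Flt3, the receptor for the ligand on which CDPs depend, had 9.49, 9.63 and 9.60 in Zeb2hi and 9.07, 9.43 and 9.62 in Zeb2low CDPs, a difference of -0.20 ± 0.17 (adjusted p = 0.42). The values overlapped, and after quantile normalization the sign turned (0.12, adjusted p = 0.653). Kit had 7.34, 8.13 and 8.14 against 8.13, 8.29 and 8.46 (0.42 ± 0.24, adjusted p = 0.234). Csf1r, the macrophage colony-stimulating factor receptor, fell from 9.16, 9.56 and 9.49 to 7.90, 8.83 and 8.59 (-0.96 ± 0.25, adjusted p = 0.036). Its adjusted p was 0.131 without Zeb2hi array 2, 0.123 without Zeb2hi array 3, 0.0744 without Zeb2low array 3, 0.0728 after quantile normalization and 0.0544 with all 8 arrays in the fit. Il7r rose from 4.69, 4.97 and 5.14 to 5.72, 5.68 and 6.64 (1.08 ± 0.27, adjusted p = 0.0318), with adjusted p of 0.0731, 0.102 and 0.0781 without Zeb2hi array 1, 2 and 3, 0.0573 with array medians centred and 0.0501 after quantile normalization. Il18r1 rose by 1.76 (adjusted p = 0.00249) and Il6st, the shared chain of the IL-6 receptor family, fell by 1.0 (adjusted p = 0.00354). Over the cytokine receptor list 3 of 31 were higher and 3 lower, near the background, with a median of -0.04; the blocked fit called 7 and 6. Without Zeb2hi array 2 and without Zeb2hi array 3 there was 1 in each direction, and 1 was lower without Zeb2low array 3.

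In the list of chemokine and lipid migration receptors 3 of 16 were higher, Ccr1, Cxcr3 and Cxcr6, and 1 was lower, Cxcr4, with a median of 0.53; the blocked fit called 7 and 2. The increases numbered 1 without Zeb2hi array 2, Zeb2hi array 3 or Zeb2low array 3 and 5 without Zeb2low array 1. Cxcr3, which guides cells along interferon-induced chemokines, was the member whose call held in all 15 alternatives, with 4.64, 4.67 and 4.83 against 6.17, 6.18 and 6.03. Cxcr4, the marrow retention receptor, fell by 0.58 (adjusted p = 0.0377), but after quantile normalization its adjusted p was 0.522. Its call was also lost without Zeb2hi array 1, 2 or 3 and without Zeb2low array 1 or 2 (adjusted p = 0.0779, 0.0965, 0.12, 0.0648 and 0.104).

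Of 24 tested Toll-like receptor and nucleic acid sensor genes 6 were higher (25.0%) and 1 lower, with a median of 0.29, and 8 and 3 in the blocked fit. Without Tlr3, which passed the filter through the Zeb2low arrays alone, 5 of 23 were higher (21.7%). Tlr12, a receptor for parasite profilin, rose by 0.92 (adjusted p = 0.00888) and Zbp1, a sensor of left-handed nucleic acid, by 1.0 (adjusted p = 0.00787), both beside Tlr3. Without Zeb2hi array 2 or 3 there were 3 increases, and Dhx58, the 1 decrease, was not called in any fit that left out 1 array.

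Interferon-stimulated genes did not move as a block. Of 40 tested 8 were higher (20%) and 3 lower, with a median of 0.29. Samd9l, an antiviral gene that also restrains growth of haematopoietic cells, had 4.63, 5.36 and 4.36 against 9.28, 8.68 and 8.91, 18.1-fold higher (4.18 ± 0.27, adjusted p = 0.000406). Ifi203, of the same PYHIN family as Ifi205, rose by 1.35 (10.00, 9.48 and 9.61 against 11.47, 10.76 and 10.92; adjusted p = 0.00871). Gbp3, a guanylate-binding protein gene, fell from 7.64, 7.60 and 7.54 to 5.47, 5.72 and 6.12 (3.54-fold, adjusted p = 0.00163). Core members of the response differed little, Stat2 by 0.12, Irf9 by 0.22 and Usp18 by 0.16 (adjusted p = 0.583, 0.573 and 0.517). The blocked fit called 16 higher and 6 lower. The increases numbered 3 without Zeb2hi array 2, 4 without Zeb2hi array 3 and 14 without Zeb2low array 1. The decreases numbered 1 without Zeb2hi array 2, Zeb2hi array 3 or Zeb2low array 3, and 6 with array medians centred.

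Genes of the granulocyte and monocyte programme divided by stage. Primary granule genes, which are made by promyelocyte-stage cells, were lower. Ctsg, the granule protease cathepsin G, had the largest decrease of all called genes, with signals of 11.32, 11.52 and 11.61 in Zeb2hi and 7.10, 8.07 and 8.45 in Zeb2low CDPs, 12.2-fold lower (-3.61 ± 0.32, adjusted p = 0.00114). Prtn3, proteinase 3, had 11.01, 11.61 and 11.83 against 8.61, 9.71 and 9.42 (4.71-fold lower, adjusted p = 0.00537). Mpo, myeloperoxidase, had 12.57, 12.56 and 12.63 against 9.21, 11.46 and 11.86, and its -1.75 did not pass the main test (adjusted p = 0.0838), while the blocked fit gave an adjusted p of 0.0285. Elane had 9.63, 9.71 and 9.89 against 7.12, 9.07 and 9.86 (adjusted p = 0.238). Zeb2low array 1 was the lowest of the 6 arrays for all 4 genes. Of 17 tested members 7 were lower (41.2%) and 1 higher, Cd63, a tetraspanin of lysosome-related organelles (2.18, adjusted p = 0.000536), with a median of -0.93, and 8 and 1 in the blocked fit. There were 2 decreases without Zeb2hi array 2 or 3. The summed linear signal of the list ran from 18421 to 22183 on the Zeb2hi arrays and from 5433 to 12073 on the Zeb2low arrays.

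Genes of mature neutrophils went the other way and tracked the replicate number. All 21 tested members had a positive difference, with a median of 2.00, where 50.6% of all genes were positive, but 5 passed the main test (23.8%) and 20 passed the blocked fit. Zeb2low array 2 was the highest of the 6 arrays for 20 of the 21 genes (15.1% of all genes), and Zeb2hi array 2 was the highest Zeb2hi array for all 21 (33.2% of all genes). Within replicate numbers 1, 2 and 3 the median of the list was higher in Zeb2low CDPs by 0.92, 2.36 and 2.29. The summed linear signal was 15353, 23289 and 12017 on Zeb2hi arrays 1 to 3. It was 26677, 59944 and 40662 on Zeb2low arrays 1 to 3, so the groups did not overlap in this sum. The list median, taken against the Zeb2hi mean of each gene, did overlap. It was 0.81 on Zeb2hi array 2 and 0.72 on Zeb2low array 1. Wfdc21, a protease inhibitor-like secreted protein gene, had 7.71, 8.22 and 7.24 against 10.17, 10.89 and 10.83 (7.50-fold, adjusted p = 0.00163) and kept its call in all 15 alternatives. Ly6g, the surface antigen that defines mouse neutrophils, had 5.77, 7.06 and 4.19 against 6.25, 10.15 and 8.19 (adjusted p = 0.12; 0.0187 in the blocked fit), and Cxcr2, their chemokine receptor, 6.92, 7.37 and 4.49 against 8.14, 10.54 and 8.31 (adjusted p = 0.0637; 0.00533 in the blocked fit). S100a8 was among the brightest genes in every array, from 12.03 to 13.13. The count of increases was 13 without Zeb2low array 1, 1 without Zeb2hi array 3, 2 without Zeb2hi array 1 and 3 without Zeb2hi array 2, Zeb2low array 2 or Zeb2low array 3. It was 9 after quantile normalization and 3 with array medians centred.

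**Figure D3:**
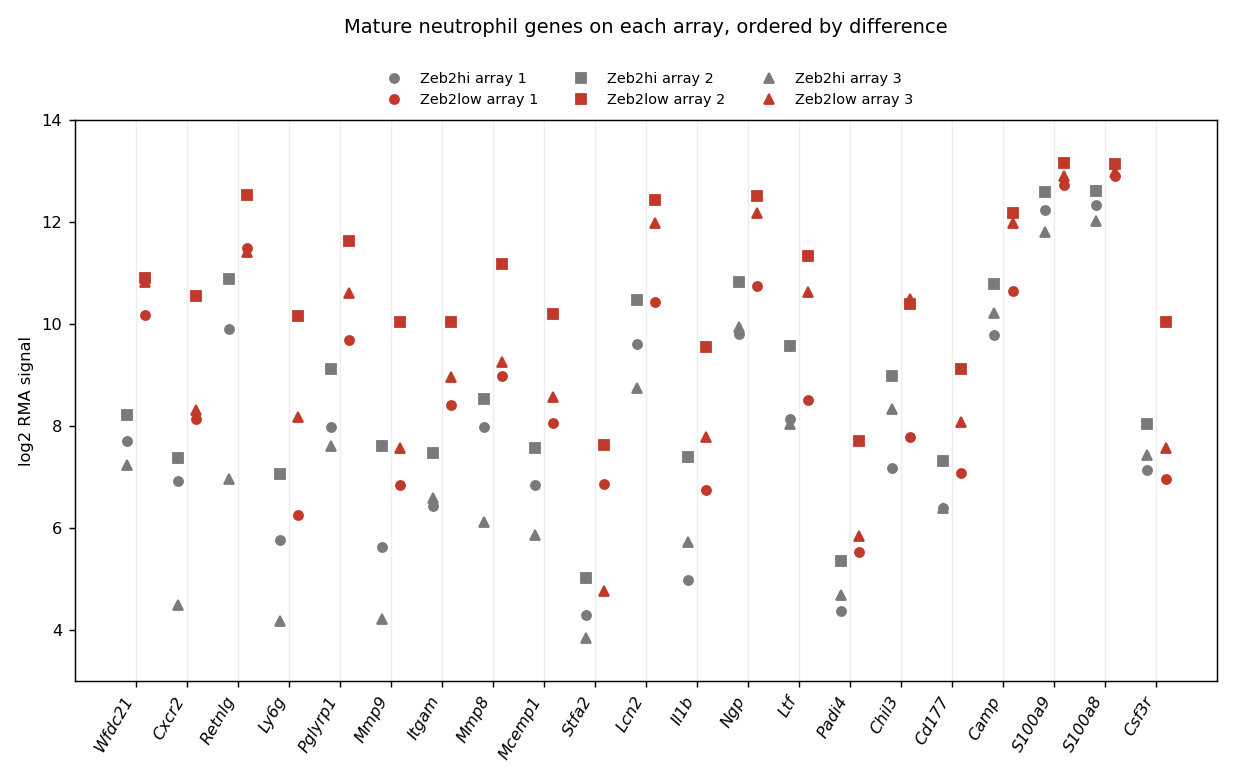
Log2 RMA signal of the 21 tested mature neutrophil genes on each array, ordered by their log2 difference, Zeb2hi arrays in grey and Zeb2low arrays in red. Replicate 2 (squares) is the highest Zeb2hi array for every gene and the highest of all arrays for 20 of the 21.

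Several of the largest increases are genes also known from neutrophils, and Lrg1, Il1r2, Itgam and Plbd1 were each highest on array 2 of both groups. Lrg1 had 6.99, 7.54 and 5.68 against 8.40, 11.61 and 10.07 (9.79-fold, adjusted p = 0.0274), and its call was lost without Zeb2hi array 2, Zeb2hi array 3 or Zeb2low array 3 (adjusted p = 0.0614, 0.0999 and 0.0783). Il1r2, a decoy receptor for IL-1, had 5.17, 5.79 and 4.21 against 7.10, 9.17 and 7.23 (6.86-fold, adjusted p = 0.0201), and Itgam, the CD11b chain, 6.43, 7.47 and 6.58 against 8.41, 10.04 and 8.97 (4.96-fold, adjusted p = 0.0124). Without Zeb2hi array 3 their adjusted p was 0.0744 and 0.0578. Plbd1, a phospholipase B-like gene of granulocytes and DCs, had 7.03, 7.65 and 5.67 against 10.71, 11.11 and 10.63, 16.4-fold higher (4.03 ± 0.45, adjusted p = 0.00235). The part of neutrophil RNA in these differences was not tested.

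Monocyte and macrophage genes had 6 of 22 higher (27.3%) and 3 lower (13.6%), with a median of 0.58, and 10 and 3 in the blocked fit. Without C1qb, which passed the filter through the Zeb2low arrays alone, 5 of 21 were higher (23.8%). F13a1, the coagulation factor XIII chain made by monocytes and their progenitors, had 10.61, 10.52 and 10.48 in Zeb2hi and 7.90, 8.10 and 8.19 in Zeb2low CDPs, 5.55-fold lower (-2.47 ± 0.14, adjusted p = 0.000269). This was among the tightest decreases: the groups were over 2 log2 units apart with little spread. Fcgr4, an Fc receptor of nonclassical monocytes and neutrophils, rose by 1.58 (4.42, 4.57 and 4.50 against 5.74, 6.78 and 5.72; adjusted p = 0.0107). Lyz2, Ccr2 and Cd14 differed by -0.39, 0.38 and 0.29 (adjusted p = 0.594, 0.504 and 0.568). Without Zeb2hi array 2 and without Zeb2hi array 3, 2 and 1 were higher, and without Zeb2low array 3 there were 3; the decreases numbered 1 in each of these fits and 1 after quantile normalization. Summed signals ran from 7894 to 10644 in Zeb2hi and from 8509 to 10502 in Zeb2low CDPs.

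Fc receptor and ITAM adaptor genes had 4 of 17 higher (23.5%) and none lower, with a median of 0.55, and 8 in the blocked fit. They were Pilra, Pilrb1, Fgr and Fcgr4, and all 4 were highest on Zeb2low array 2. The shared adaptors Tyrobp and Fcer1g differed by 0.04 and -0.12 (adjusted p = 0.908 and 0.669). There were 8 increases without Zeb2low array 1, 1 without Zeb2hi array 3 and 2 without Zeb2low array 3.

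Lymphoid genes also rose in part. Of 14 tested genes of T, NK and innate lymphoid cells (28 were listed) 7 were higher (50%) and none lower, with a median of 0.73, and 8 in the blocked fit. Thy1, a glycoprotein of T cells and lymphoid precursors, had 5.74, 5.78 and 5.48 against 7.99, 7.78 and 7.89 (4.66-fold, adjusted p = 0.000406). Cd96, a nectin receptor like Cd226, had 4.86, 5.02 and 5.13 against 6.58, 6.13 and 6.78 (2.82-fold, adjusted p = 0.00367). Both genes kept the groups apart on all arrays. The T cell receptor complex genes Cd3d and Cd3e were among the increases: Cd3d had 4.14, 4.31 and 4.28 against 4.64, 5.82 and 6.07 (2.41-fold, adjusted p = 0.0401), a call that held in 1 of the 6 fits that each left out 1 array, and Cd3e differed by 0.59 (adjusted p = 0.0318), in 2 of those 6. Of other defining genes Cd3g, Gata3, Eomes and Ncr1 did not pass the signal filter, and Nkg7 and Prf1 differed by 0.17 and 0.07 (adjusted p = 0.783 and 0.84). Summed signals ran from 762 to 889 in Zeb2hi and from 1340 to 1643 in Zeb2low CDPs. The increases numbered 3 without Zeb2hi array 2 or 3, 4 without Zeb2hi array 1 or Zeb2low array 2, 4 after quantile normalization and 3 with array medians centred.

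Of 14 tested B cell genes 5 were higher (35.7%) and 1 lower, with a median of 0.64, and 9 and 1 in the blocked fit. The decrease was Cd79b, a chain of the B cell receptor complex, from 8.0, 8.30 and 8.32 to 7.32, 6.89 and 7.22 (2.09-fold, adjusted p = 0.00743). Cd22 led the increases. Cd79a, Ms4a1, Ebf1, Rag1 and Rag2 did not pass the signal filter, and Pax5 differed by 0.31 (adjusted p = 0.207). Summed signals ran from 2307 to 3030 in Zeb2hi and from 4344 to 4906 in Zeb2low CDPs. There was 1 increase without Zeb2hi array 2 or 3, there were 2 without Zeb2low array 2 and 3 without Zeb2low array 3. Basophil, mast cell and eosinophil genes had 1 of 9 higher, Cpa3, and erythroid and megakaryocyte genes 2 of 11, Vwf and Itga2b; none was lower in either list, and the blocked fit called 2 and 5. Cpa3 passed the filter through the Zeb2low arrays alone, and without it 0 of 8 genes of its list were higher. Cpa3 was not called without Zeb2hi array 1, 2 or 3, and 5 of its list were higher without Zeb2low array 1. The erythroid and megakaryocyte list had 0 increases without Zeb2hi array 2, Zeb2hi array 3, Zeb2low array 2 or Zeb2low array 3 and 1 without Zeb2low array 1. Summed signals of the basophil list ran from 486 to 492 in Zeb2hi and from 530 to 1598 in Zeb2low CDPs, and of the erythroid list from 592 to 666 and from 601 to 1548. The part of RNA from these other cells in the differences above was not tested.

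Stem and early progenitor genes were lower in part, with 5 of 23 lower (21.7%) and 1 higher, Cd48, a median of -0.23, and 7 and 2 in the blocked fit. The median member of the list lies in the signal class below the brightest, where 16.1% of all genes were lower, so this share is near the background. Meis1, a homeobox gene of stem cells, had 6.63, 6.52 and 6.73 against 5.65, 5.85 and 5.84 (1.80-fold lower, adjusted p = 0.00808). Cd34, the progenitor sialomucin, had 9.67, 10.53 and 10.54 against 7.75, 9.20 and 9.45 and differed by -1.45 (adjusted p = 0.0626; 0.00224 in the blocked fit). Myb, Hoxa9 and Gata2 differed by -0.39, -0.23 and 0.35 (adjusted p = 0.174, 0.373 and 0.13). There was 1 decrease without Zeb2hi array 2 or 3, and there were 3 without Zeb2low array 1, 2 or 3 and after quantile normalization. Cd48 was not called without Zeb2hi array 2 or 3, and without Zeb2low array 1 there were 2 increases.

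**Figure D4:**
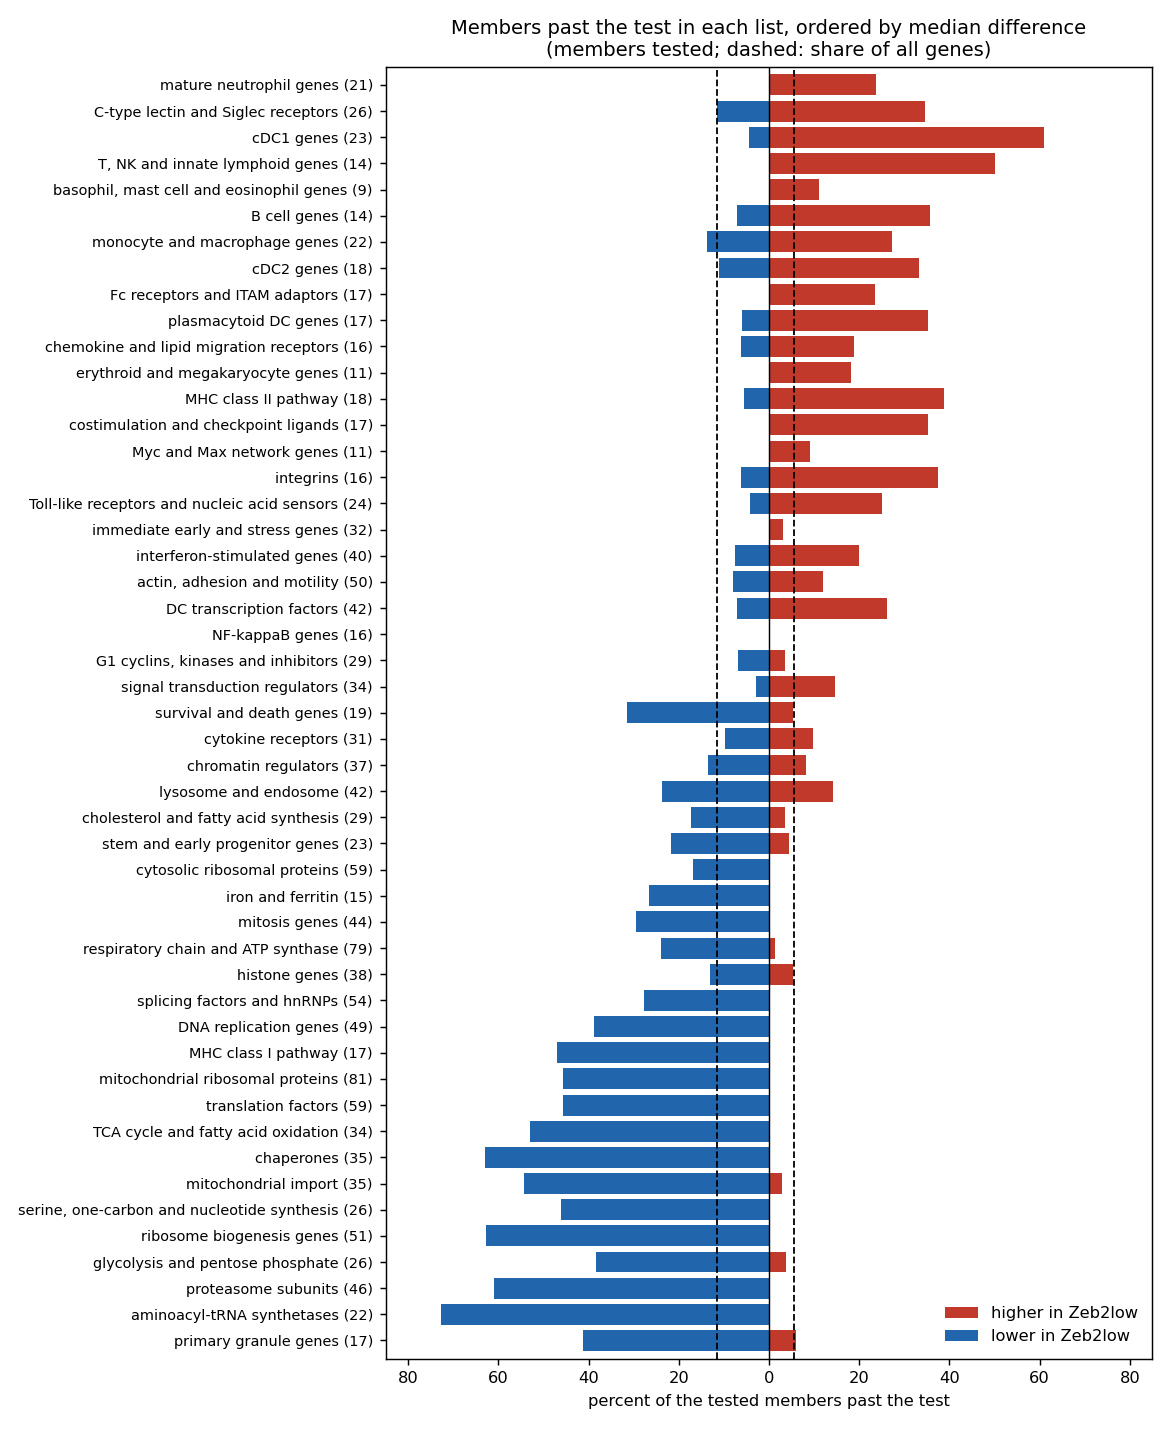
Percent of the tested members of each of the 49 gene lists called higher (right, red) or lower (left, blue) in Zeb2low CDPs, ordered by median difference, with the number tested in brackets and dashed lines at 5.59% and 11.6%, the shares over all genes. DC, receptor and lineage lists lie at the top with up to 60.9% higher, and primary granule, protein synthesis and proteasome lists at the bottom with up to 72.7% lower.

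Lists of protein synthesis genes had among the highest shares of decreases. The median translation factor gene lies in the brightest signal class, where 21.8% of all genes were lower. The median members of the ribosome biogenesis and synthetase lists lie in the class below it, where 16.1% were lower. Of 51 tested ribosome biogenesis genes all 51 had a negative difference, against 49.4% of all genes, and 32 were lower past the test (62.7%) and none higher, with a median of -0.78. Nop16, a nucleolar protein gene, had 8.08, 8.89 and 8.76 in Zeb2hi and 7.0, 7.30 and 6.92 in Zeb2low CDPs (2.83-fold lower, adjusted p = 0.00726), and Nip7, which acts in large subunit assembly, fell by 1.49 (adjusted p = 0.00228). Aminoacyl-tRNA synthetase genes had 16 of 22 lower (72.7%) and none higher, with a median of -0.93. Lars, the leucyl synthetase gene, had 8.69, 8.79 and 8.52 against 7.31, 7.32 and 7.44 (adjusted p = 0.00178). Translation factor genes had 27 of 59 lower (45.8%) and none higher, with a median of -0.64. Eif3m, a subunit of the initiation factor that holds the small ribosomal subunit, had 9.99, 9.89 and 9.92 against 8.02, 7.95 and 7.83 (4.0-fold lower, adjusted p = 0.000406), and Eif3e, of the same complex, fell by 1.60 (adjusted p = 0.000713). The arrays of each group lay close together for Eif3m, and the groups were far apart.

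The blocked fit called 43, 17 and 35 genes lower in these 3 lists, in that order. They numbered 13, 6 and 10 both without Zeb2hi array 2 and without Zeb2hi array 3. Without Zeb2low array 2, 19 ribosome biogenesis genes and 10 synthetase genes were lower. After quantile normalization 21 ribosome biogenesis genes and 17 translation factor genes were lower. The medians stayed below 0 in all of these settings.

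Ribosomal protein genes differed less. Of 59 genes of the cytosolic ribosome 10 were lower (16.9%) and none higher, with a median of -0.24, in a list whose median member lies in the brightest signal class, where 21.8% of all genes were lower. It was 16 in the blocked fit. Rpl5 stood apart at 11.82, 11.72 and 11.70 against 9.97, 9.70 and 9.66 (3.92-fold lower, adjusted p = 0.000553). These genes have many processed pseudogenes that can share probes, so single values are uncertain. There were 3 decreases without Zeb2hi array 2 or 3, 5 without Zeb2low array 2, 4 without Zeb2low array 3, 4 after quantile normalization and 19 with array medians centred. The median of the list was -0.05 after quantile normalization and -0.40 with array medians centred. Splicing factor and hnRNP genes had 15 of 54 lower (27.8%) and none higher, with a median of -0.41, and 26 in the blocked fit. The median member of this list also lies in the brightest signal class. Srsf9 had 8.65, 8.79 and 8.74 against 7.34, 6.82 and 6.85 (3.30-fold lower, adjusted p = 0.00163), and Srsf3 fell by 1.53 (adjusted p = 0.00631). There were 7 without Zeb2hi array 2, 8 without Zeb2hi array 3, 9 after quantile normalization and 25 with array medians centred. The median of the splicing list was -0.08 after quantile normalization and -0.57 with array medians centred.

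The mitochondrial lists differed in their share of decreases. The median members of the mitochondrial ribosomal, import and TCA cycle lists lie in the signal class below the brightest, where 16.1% of all genes were lower. Of 81 mitochondrial ribosomal protein genes 37 were lower (45.7%) and none higher, with a median of -0.59. Mrpl11 had 9.25, 9.35 and 9.22 against 7.58, 7.86 and 7.59 (3.03-fold lower, adjusted p = 0.00112). Mitochondrial import genes had 19 of 35 lower (54.3%) and 1 higher, Pam16, with a median of -0.76. Tomm5, a small subunit of the outer membrane translocase, had 8.18, 9.31 and 9.13 against 6.32, 6.56 and 5.77 (6.31-fold lower, -2.66 ± 0.32, adjusted p = 0.00312), and Samm50, the core of the outer membrane assembly machine, fell by 2.04 (adjusted p = 0.00574). Respiratory chain and ATP synthase genes had 19 of 79 lower (24.1%) and 1 higher, Ndufa6, with a median of -0.30, close to the 21.8% of the brightest signal class. Sdhc, a membrane anchor of succinate dehydrogenase, had 9.78, 10.47 and 10.40 against 8.34, 8.17 and 8.17 (3.97-fold lower, adjusted p = 0.0017), and the ATP synthase subunit genes Atp5a1 and Atp5b were lower, with differences of -1.77 and -1.78 (adjusted p = 0.00405 and 0.00524). After quantile normalization the median of the respiratory list was -0.01.

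Genes of the TCA cycle and fatty acid oxidation had 18 of 34 lower (52.9%) and none higher, with a median of -0.72. Etfb, which passes electrons from fatty acid oxidation to the respiratory chain, had 9.34, 10.49 and 10.22 against 6.98, 8.11 and 7.02 (6.24-fold lower, adjusted p = 0.00577). Hadh, an enzyme of the same pathway, had 7.14, 8.43 and 8.21 against 5.43, 5.56 and 5.39 (5.53-fold lower, adjusted p = 0.00342), and Idh2, the mitochondrial isocitrate dehydrogenase, fell by 2.01 (adjusted p = 0.00252). Each of these genes was lower on Zeb2hi array 1 than on the other Zeb2hi arrays, and no values overlapped between the groups. Across the 4 mitochondrial lists, in the order given, the blocked fit called 49, 26, 29 and 25 lower. Without Zeb2hi array 2 the numbers were 17, 9, 12 and 8, and without Zeb2hi array 3 they were 13, 9, 10 and 9; without Zeb2low array 3, 12 respiratory genes were lower. With array medians centred 29 respiratory genes were lower. Pam16 was not called without Zeb2hi array 1, 2 or 3 or Zeb2low array 1 or 3, and Ndufa6 without Zeb2hi array 3, while without Zeb2hi array 1 the respiratory list had 2 increases and without Zeb2low array 2 the mitochondrial ribosomal list had 1.

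In cytosolic metabolism 10 of 26 glycolysis and pentose phosphate genes were lower (38.5%) and 1 was higher, Aldoc, with a median of -0.78, and 16 and 3 in the blocked fit. Tpi1, triose phosphate isomerase, had 8.63, 9.79 and 9.80 against 6.83, 7.61 and 7.71 (4.06-fold lower, adjusted p = 0.0111; 0.0535 without Zeb2hi array 2 and 0.0526 without Zeb2hi array 3). The list had 2 decreases without Zeb2hi array 2 or 3, 5 without Zeb2low array 3 and 6 after quantile normalization. Aldoc was called in no fit that left out 1 array other than Zeb2low array 2, and there were 2 increases without Zeb2low array 1. All 26 tested genes of serine, one-carbon and nucleotide synthesis had a negative difference, and 12 were lower past the test (46.2%) and none higher, with a median of -0.77. Atic, of purine synthesis, had 9.12, 10.07 and 9.82 against 7.56, 7.51 and 8.0 (3.96-fold lower, adjusted p = 0.00402), and Paics, of the same pathway, fell by 1.70 (adjusted p = 0.000713). In the blocked fit 20 were lower, and there were 6 without Zeb2hi array 2 and 5 without Zeb2hi array 3. Cholesterol and fatty acid synthesis genes had 5 of 29 lower (17.2%) and 1 higher, with a median of -0.19, and 7 and 3 in the blocked fit. The increase was Fdft1, squalene synthase (1.13, adjusted p = 0.00307), whose call the mean of its probe sets ends (adjusted p = 0.0921). There was 1 decrease without Zeb2hi array 2 or 3, and there were 3 without Zeb2low array 1, 2 or 3 and after quantile normalization.

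Protein folding and turnover genes fell with the synthesis genes. The median members of the proteasome and chaperone lists lie in the brightest signal class, where 21.8% of all genes were lower. Of 46 proteasome subunit genes 28 were lower (60.9%) and none higher, with a median of -0.79, and 34 in the blocked fit. Without Psma8, which passed the filter through the Zeb2hi arrays alone, 27 of 45 were lower (60%). Psmb7, a catalytic subunit, had 9.87, 10.47 and 10.24 against 8.0, 8.22 and 8.09 (4.25-fold lower, adjusted p = 0.00107), and Psma1, Psma4 and Psma5 fell by 1.77, 1.68 and 1.75 (adjusted p = 0.00155, 0.00172 and 0.00289). Of 35 chaperone genes 22 were lower (62.9%) and none higher, with a median of -0.72, and 24 in the blocked fit. Pdia6, a disulfide isomerase gene, had 9.16, 9.72 and 9.76 against 6.85, 7.51 and 7.74 (4.53-fold lower, adjusted p = 0.00305), and Ppib, a prolyl isomerase gene of the same compartment, fell by 1.99 (adjusted p = 0.00507). Ufc1, an enzyme gene of a ubiquitin-like modifier, fell by 2.52 (8.83, 9.05 and 8.82 against 6.15, 6.29 and 6.70; adjusted p = 0.000506). Proteasome decreases numbered 12 without Zeb2hi array 2 or 3, 18 without Zeb2low array 3 and 16 after quantile normalization. Chaperone decreases numbered 10 without Zeb2hi array 2, 8 without Zeb2hi array 3 and 11 after quantile normalization.

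The MHC class I pathway moved apart from class II. Of 17 tested members none was higher and 8 were lower (47.1%), with a median of -0.57, and 9 in the blocked fit. The median member of this list lies in the brightest signal class, where 21.8% of all genes were lower. The list includes the immunoproteasome subunit gene Psmb8, which had 9.84, 9.79 and 10.11 against 8.84, 8.65 and 8.69 (2.27-fold lower, adjusted p = 0.0031). The light chain gene B2m differed by 0.14 (adjusted p = 0.512), and Tap1, Tap2 and Nlrc5 by -0.14, 0.17 and 0.39 (adjusted p = 0.59, 0.438 and 0.0978). The genes that fell, which include Psmb8, Calr and Sec61a1, encode proteasome, folding and translocon proteins, and the heavy chain genes H2-K1 and H2-D1 were not analysed here. There were 2 decreases without Zeb2hi array 2, 1 without Zeb2hi array 3 and 4 without Zeb2low array 3. After quantile normalization there were 4 decreases and 1 increase, with a median of -0.30.

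Lysosome and endosome genes went both ways, with 6 of 42 higher (14.3%) and 10 lower (23.8%), a median of -0.15, and 6 and 16 in the blocked fit. Rab7, the late endosome GTPase gene, fell by 1.13 (10.04, 10.17 and 10.09 against 8.99, 9.22 and 8.70; adjusted p = 0.00577), while Rab7b rose as given above. Without Zeb2hi array 3 there were 3 increases, and without Zeb2hi array 2 or 3 there were 5 decreases. Iron genes had 4 of 15 lower (26.7%) and none higher, with a median of -0.24, and 4 lower in the blocked fit. Ftl1, the ferritin light chain, had 10.96, 11.49 and 11.44 against 7.47, 9.92 and 8.40 (6.49-fold lower, adjusted p = 0.0157), with adjusted p of 0.0677, 0.0638 and 0.0556 without Zeb2hi array 2, Zeb2hi array 3 and Zeb2low array 3. Ferritin genes have many pseudogenes that can share probes. There was 1 decrease in each of those 3 fits and there were 6 with array medians centred; 2 genes were higher without Zeb2low array 1 and in the blocked fit.

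Of the cell cycle lists, DNA replication and mitosis had decreases and G1 was near the background. DNA replication genes had 19 of 49 lower (38.8%) and none higher, with a median of -0.55, and 30 in the blocked fit. Gins1, of the replicative helicase, had 8.37, 8.32 and 8.30 in Zeb2hi and 7.11, 6.65 and 6.69 in Zeb2low CDPs (2.85-fold lower, adjusted p = 0.00192), and Rfc2, a clamp loader subunit gene, fell by 1.19 (adjusted p = 0.00384). Mitosis genes had 13 of 44 lower (29.5%) and none higher, with a median of -0.29; the blocked fit called 17 lower and 1 higher. The median member of both lists lies in the brightest signal class, where 21.8% of all genes were lower with a median of -0.22. After quantile normalization 11 replication genes were lower, and 2 mitosis genes were lower and 2 higher. The list medians were then -0.32 for replication and -0.06 for mitosis, and -0.71 and -0.45 with array medians centred. Replication decreases numbered 4 without Zeb2hi array 2 or 3, 10 without Zeb2low array 2 and 11 without Zeb2low array 3, and mitosis decreases 2, 1, 4 and 5 without Zeb2hi array 2, Zeb2hi array 3, Zeb2low array 2 and Zeb2low array 3.

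Among G1 genes the kinases of D-type cyclins stood apart. Cdk6 had 10.60, 10.30 and 10.37 against 8.42, 8.82 and 8.88 (3.29-fold lower, -1.72 ± 0.17, adjusted p = 0.00163). Cdk4 had 10.32, 11.03 and 10.95 against 9.04, 9.67 and 9.62 (2.51-fold lower, adjusted p = 0.0124; 0.0599 without Zeb2hi array 2 and 0.0588 without Zeb2hi array 3). Their cyclin partners differed little, Ccnd1 by -0.13, Ccnd2 by -0.06 and Ccnd3 by 0.02 (adjusted p = 0.628, 0.775 and 0.978). The inhibitor gene Cdkn1b had 10.02, 8.87 and 8.97 against 10.80, 9.80 and 9.88, higher in Zeb2low CDPs within each replicate number, and its difference of 0.87 did not pass the main test (adjusted p = 0.137), while the blocked fit gave an adjusted p of 0.00337. Over the list 1 of 29 was higher, E2f7, and 2 were lower, near the background, and 4 and 4 in the blocked fit. E2f7 was not called without Zeb2hi array 2, Zeb2hi array 3 or Zeb2low array 3, and 2 genes were higher without Zeb2hi array 1 or Zeb2low array 1; 1 was lower without Zeb2hi array 2 or 3. Histone genes, many of which are near-identical copies whose probes can be shared, had 5 of 38 lower (13.2%) and 2 higher, with a median of -0.33, and 15 and 3 in the blocked fit; after quantile normalization 4 were lower and 6 higher. The decreases numbered 0 without Zeb2hi array 2 or 3, 3 without Zeb2low array 1 and 2 without Zeb2low array 3. The increases numbered 1 without Zeb2hi array 2, 0 without Zeb2hi array 3 or Zeb2low array 3, and 4 without Zeb2low array 1.

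Remaining lists held single genes of note. Among survival and death genes 6 of 19 were lower (31.6%) and 1 higher, Bmf, with a median of 0.05, the same counts as in the blocked fit. Bid, which links death receptors to mitochondria, fell from 7.21, 7.62 and 7.55 to 5.82, 6.38 and 6.36 (2.42-fold, adjusted p = 0.00743), and Mlkl, the executor of necroptosis, from 7.86, 7.62 and 7.64 to 6.35, 6.03 and 6.78 (2.49-fold, adjusted p = 0.00717). Mcl1 and Bcl2l1, which protect cells, differed by 0.32 and 0.11 (adjusted p = 0.246 and 0.659). Bmf was not called in any fit that left out 1 array, and the decreases numbered 2 without Zeb2hi array 2 or 3, 3 without Zeb2low array 2 or 3 and 3 after quantile normalization. Chromatin regulator genes had 3 of 37 higher and 5 lower, near the background, with a median of -0.12, and 4 and 7 in the blocked fit. Tet1, which oxidises methylated cytosine, had 7.63, 6.81 and 6.43 against 8.67, 8.34 and 8.66 (3.03-fold higher, adjusted p = 0.0113; 0.0561 without Zeb2hi array 2), and Hdac2, a histone deacetylase gene, fell by 1.13 (adjusted p = 0.00438). The increases numbered 0 without Zeb2hi array 2 and 1 without Zeb2hi array 3, Zeb2low array 2 or Zeb2low array 3, and the decreases 1 without Zeb2hi array 2 or 3 and 3 without Zeb2low array 2 or 3.

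Signal transduction regulators had 5 of 34 higher (14.7%) and 1 lower, Ptpn6, with a median of 0.14, and 7 and 2 in the blocked fit. Rasgrp4, a Ras activator of myeloid cells, had 6.0, 6.57 and 5.93 against 7.83, 9.13 and 8.13 (4.59-fold, adjusted p = 0.00726), P2ry14, a receptor for UDP-sugars, rose by 1.10 (adjusted p = 0.00833) and Rgs2 by 1.13 (adjusted p = 0.00586). Ptpn6 was not called in any fit that left out 1 array, and without Zeb2hi array 2 there were 3 increases. Actin, adhesion and motility genes had 6 of 50 higher (12%) and 4 lower, with a median of 0.24, and 12 and 7 in the blocked fit. After quantile normalization 18 were higher and 1 lower. Increases numbered 1 without Zeb2hi array 2 or 3, 3 without Zeb2low array 2 and 11 without Zeb2low array 1, and decreases 1 without Zeb2hi array 2 or 3 and 2 without Zeb2low array 3. Immediate early and stress genes, which mark handling of cells, had 1 of 32 higher, Ddit4, and none lower, and 7 and 2 in the blocked fit. Their list median on the Zeb2hi arrays ran from -0.54 to 0.53, a wider span than the median difference of the list (0.29). Ddit4 was not called without Zeb2hi array 1, 2 or 3 or Zeb2low array 2 or 3, and 7 genes were higher without Zeb2low array 1. Of 16 NF-kappaB genes none passed limma's main test (1 was higher at an unadjusted p under 0.05), with a median of 0.17, and 2 were higher in the blocked fit. Of 11 genes of the Myc and Max network 1 was higher, Mycl (0.60, adjusted p = 0.0314), with Myc itself at -0.10 (adjusted p = 0.731), and 3 in the blocked fit. Mycl was not called without Zeb2hi array 1, 2 or 3 or Zeb2low array 2 or 3, while without Zeb2low array 1 there were 3 increases.

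**Figure D5:**
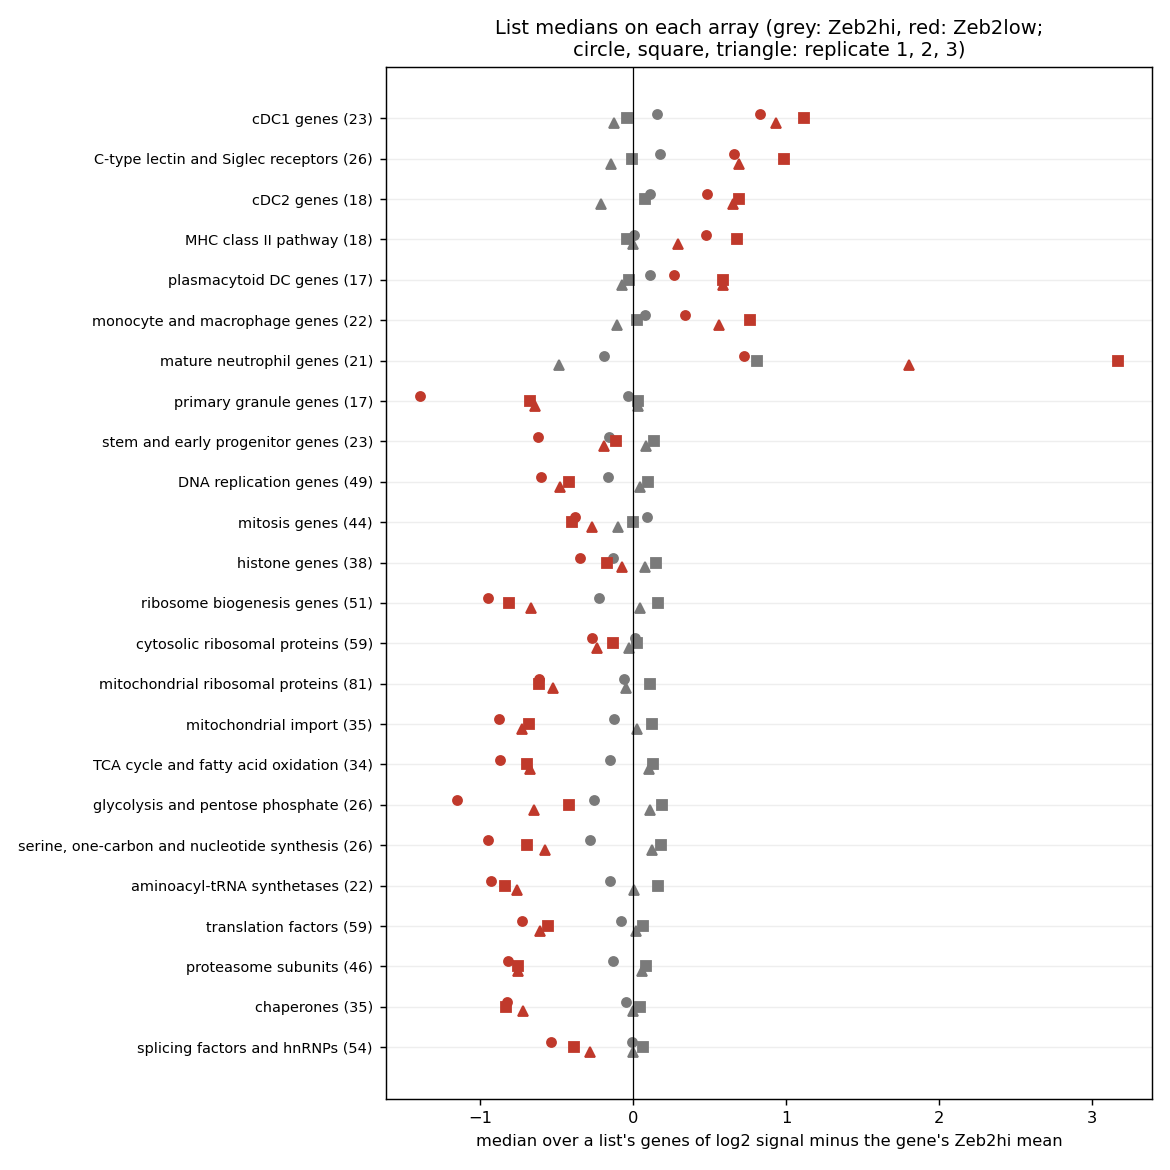
Median over the tested genes of 24 lists of the log2 signal minus the gene's mean over the Zeb2hi arrays, for each array (grey, Zeb2hi; red, Zeb2low; shapes, replicate number; number of genes in brackets). Zeb2low and Zeb2hi arrays are apart for most lists, by 0.67 to 1.16 for cDC1 genes within replicate numbers, whereas the mature neutrophil list spreads from 0.72 to 3.17 among the Zeb2low arrays.

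The list medians were also read within each replicate number, which takes no fit. The cDC1 list was higher in Zeb2low CDPs by 0.67, 1.16 and 1.06 within replicate numbers 1, 2 and 3, and the MHC class II list by 0.47, 0.72 and 0.30. Ribosome biogenesis genes differed by -0.73, -0.98 and -0.71, aminoacyl-tRNA synthetase genes differed by -0.78, -1.0 and -0.77 and proteasome genes by -0.69, -0.84 and -0.81. DNA replication genes differed by -0.44, -0.52 and -0.52, and mitosis genes by -0.47, -0.40 and -0.17. These lists kept 1 direction within all 3 numbers, but so did most lists. Among them were 2 lists near the background, G1 genes (0.13, 0.01 and 0.14) and chromatin regulators (-0.16, -0.03 and -0.005). A kept direction therefore sets no list apart. The replicate 1 arrays of both groups were the lowest of their group for ribosome biogenesis, glycolysis and TCA cycle lists, so part of the spread that enters the main test is shared by number.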

How the data were processed

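RNA was measured on Affymetrix mouse gene arrays, and the deposited table holds linear intensity values that the authors made with Affymetrix Expression Console and RMA, per the submitters' processing notes; the notes give no versions. RMA corrects background and normalizes arrays together, which can narrow differences of dim genes; no detection calls were used. Of 28853 probe sets, 21789 name 1 gene, 1621 several and 5443 none in the platform annotation, and 21698 were found by gene ID in the RefSeq gene table. Values were taken to log2. A probe set was kept where it lay above the 40th percentile of its own array in at least 3 of the 6 arrays. Each gene was given by its kept probe set of highest mean signal. The 12799 genes were fitted with limma 3.58.1 in R 4.3.3 on the 6 arrays, with the group as the only term and 4 residual degrees of freedom. Adjusted p is Benjamini-Hochberg over all 12799 genes, with a threshold of 0.05, and ± is the standard error of the fit.

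Deviations from the group means correlated between same-numbered arrays of both groups (r = 0.486, 0.411 and 0.323 for numbers 1, 2 and 3), so the numbers were treated as pairing the arrays. Between arrays of unlike number, r was 0.151 for Zeb2hi 2 with Zeb2low 3 and 0.0552 for Zeb2hi 3 with Zeb2low 2. It was negative where number 1 was joined to another number. Deviations from a mean of 3 arrays are tied to each other, so these r values are a description only. What a number marks is not in the labels, and the pairing comes from the values. The blocked fit has 2 residual degrees of freedom. Tested on simulated data with 12799 genes, the script recovered 59 of 100 genes changed by 1 log2 unit and 92 of 100 changed by 2, with 10 false calls. The simulated noise was independent between arrays, and few genes were changed. These figures therefore do not cover deviations shared by number or shifts of whole arrays, and only check that the script runs as meant.

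The members and the 49 gene lists were chosen with earlier results of these data known. The genes named by rule were Zeb2, Id2, Nfil3 and Batf3, the 12 with the largest non-overlapping difference in each direction, up to 4 called members a direction of each list (where none passed, the 2 with the smallest p) and Flt3, Csf1r, Kit and Il7r. Other genes with values, such as Ciita, H2-Oa, Naaa, Wdfy4, Irf8, Clec9a, Mpo, Ly6g, Cd34 and list members that did not pass, were chosen after their values were seen. Promoter windows are RefSeq's (GRCm38.p6), 250 bases before to 50 after the start. The other 2 arrays of the series entered only 1 alternative fit.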

Additional observations from a re-analysis of the deposited data

How the results depend on the processing

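The comparison called 715 genes higher and 1481 lower in Zeb2low CDPs. With array weights the counts were 1698 and 2599, with the replicate block 1469 and 2548, and with array medians centred 442 and 2342. Leaving out 1 array at a time gave 193 to 905 higher and 461 to 1620 lower; the counts were lowest without Zeb2hi array 3 (193 and 461) and Zeb2hi array 2 (217 and 474), and were 353 and 889 without Zeb2low array 3 and 442 and 1015 without Zeb2low array 2. No filter, a stricter filter, quantile normalization, all 8 arrays in 1 fit, the mean of probe sets and a trended robust prior left both counts within 1.5 times the main ones. Fits that left out an array had fewer samples, but their counts went both ways. Without Zeb2hi array 1 there were 679 higher and 1620 lower, and without Zeb2low array 1 there were 905 higher and 1425 lower. The cause of these shifts was not tested.

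Of 222 genes named by rule, all 222 kept their direction and side of the threshold with the replicate block and with array weights, 205 with medians centred, 196 with all 8 arrays and 185 after quantile normalization; leaving out 1 array kept 115 (Zeb2hi array 3), 125 (Zeb2hi array 2), 164 (Zeb2low array 3) and 191 to 204 (each other array). Flt3 changed sign after quantile normalization (0.12, adjusted p = 0.653). List medians changed sign for some lists: costimulation and checkpoint ligands, median log2 difference -0.023, and erythroid and megakaryocyte genes, -0.40, both under the stricter filter, which tests fewer genes, G1 genes with array medians centred (-0.019) and chromatin regulators after quantile normalization (0.056). Medians near 0 also changed sign: survival and death genes (-0.11) and signal transduction regulators (-0.025) with array medians centred, and cytokine receptors after quantile normalization (0.12). Survival and death genes also did so under the stricter filter, with the mean of probe sets and without Zeb2hi array 2 or 3, and cytokine receptors with array weights and without Zeb2hi array 3 or Zeb2low array 1. Signals near the filter level limit folds of the dimmest genes.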
